A study of Mus musculus with 5 samples.

Results

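Probe sets for matrix proteases and their inhibitors were compared between sciatic nerves of Ebf2-/- and wild-type mouse pups. The members were chosen by gene symbol alone: matrix metalloproteinases (Mmp genes), their tissue inhibitors (Timp genes), Adam genes other than Adam11, Adam22 and Adam23, Adamts and Adamtsl genes, serpins, cathepsins, the HtrA family, and Plat, Plau and Plaur. This rule found 74 genes, each with 1 probe set, among 9407 genes with a single symbol in a table of 10361 probe sets. Ebf2 belongs to the early B cell factors, a family of DNA-binding transcription factors. Each array measured 1 pool of 12 nerves taken at postnatal day 2 on a C57Bl6N background, when Schwann cells begin to form myelin. There were 3 wild-type (Ebf2+/+, WT) pools, numbered 1, 9 and 11, and 2 Ebf2-/- (KO) pools, numbered 2 and 4. The pups came from crosses of heterozygous parents, and the labels give neither the deleted stretch of Ebf2 nor the number of animals behind a pool. A knockout of this kind lacks the gene in all cells, so the design compares whole nerves and not a cell type.

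The extracellular matrix of a growing nerve is laid down by fibroblasts, Schwann cells and vascular cells and is remodelled by secreted and membrane-bound proteases. Matrix metalloproteinases, ADAMs and ADAMTSs are zinc enzymes that cut collagens, proteoglycans or the outer part of membrane proteins, and TIMPs block them. Plasminogen activators turn plasminogen into plasmin. Most serpins trap serine proteases, while cathepsins work mainly in lysosomes or in the granules of blood cells.

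All levels are log2 values made with RMA, and log2 fold changes are given for KO over WT with the standard error (SE) of a limma fit to the whole table. A probe set was called at an adjusted p (Benjamini-Hochberg over all 10361) below 0.05. Ebf2 itself was at 11.36 ± 0.21 (SD, n = 3) in WT and at 9.00 ± 0.35 (SD, n = 2) in KO, so every pool lay on the side of its label. The array medians ran from 9.04 to 9.11 in WT and were 9.11 and 8.93 in KO pools 2 and 4. WT pools 9 and 11 stood apart from WT pool 1 in genes of other tissues: the mean of 15 measured keratinocyte genes was 9.19 and 8.52 there, against 7.35 in WT pool 1 and 7.41 and 7.68 in KO, and that of 20 skeletal muscle genes was 11.62 and 11.44, against 10.07 in WT pool 1 and 10.56 and 10.77 in KO. The smallest gap between the lowest and the fourth-ranked value of a probe set was 0.175 over the table, so genes with less spread than this are not analysed here. Mmp2, Mmp9, Timp2 and Serpine2 are also not analysed here, and the counts below hold for the 74 genes of the table and not for the families as a whole.

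Adamts1, which encodes a secreted protease that cuts the proteoglycans aggrecan and versican, rose 1.84-fold in the KO pools (log2 fold change 0.88, SE 0.20, limma adjusted p = 0.0445). The other 73 members did not pass. Of all probe sets 0.676% were called, 0.347% higher and 0.328% lower in KO, so 1 call among 74 members is near that background.

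The members lay higher in KO more often than the table did. Of the 74 members 55 were higher in KO and 19 lower, with a median log2 fold change of 0.12, while 49.8% of all probe sets were higher and their median was 0.00 to 2 decimals (-0.0017). Both KO pools lay above all WT pools in 25 members (33.8%), against 17.5% of the table, and below all of them in 3 members (4.05%), against 13.3%. At unadjusted p below 0.05, 11 members (14.9%) were higher and 1 (1.35%) was lower, where the table had 7.14% and 7.17%. With each array centred on its median the table held 840 higher and 392 lower at this threshold in place of 740 and 743, and the members 13 higher and 0 lower. These shares describe the members and were given no test, because genes of a nerve vary together and are not replicates.

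**Figure D1:**
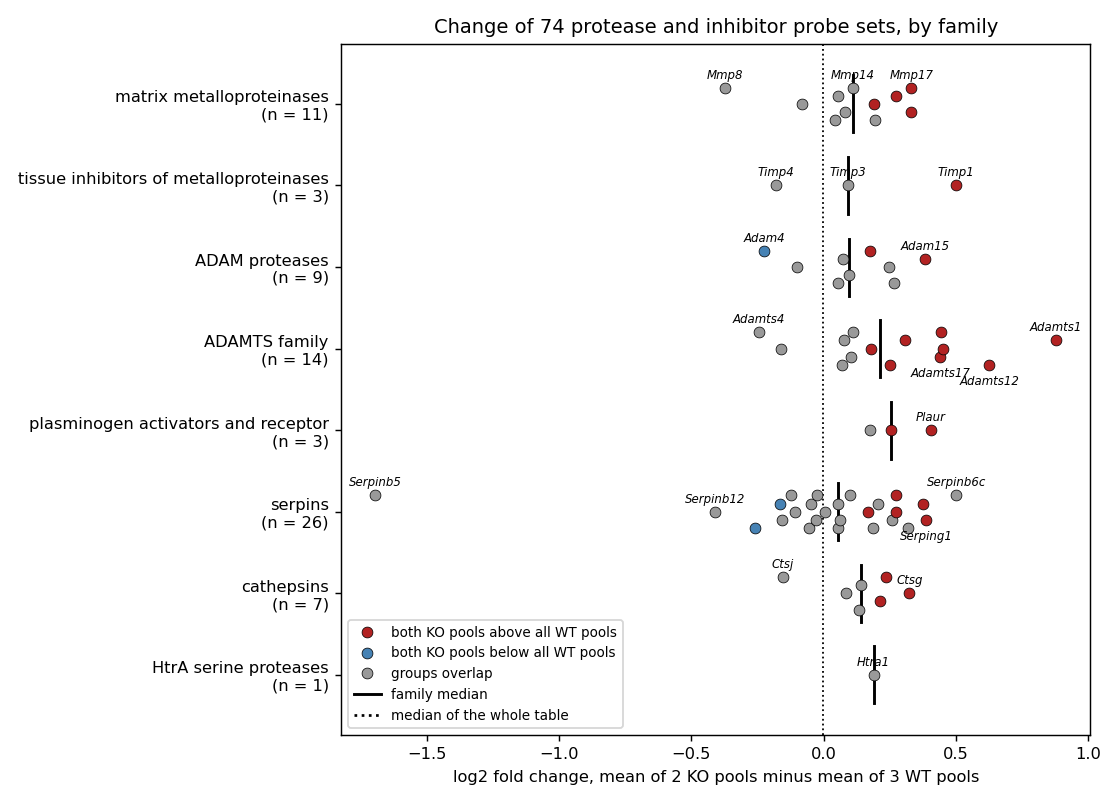
Each point is 1 of the 74 members, placed by its log2 fold change between 2 KO and 3 WT pools and grouped by family; colour shows whether the KO pools lie outside the range of the WT pools, short bars are family medians and the dotted line is the median of the whole table. Adamts1 stands furthest to the right at 0.88, Serpinb5 furthest to the left at -1.70, and 8 of the 14 ADAMTS points have both KO pools above all WT pools.

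The shift lay in the brighter probe sets. A total of 42 members had a mean level above the 25th percentile of the table (7.66), and 32 lay at or below it, most of them serpins of clades A and B and genes known from testis or placenta. Of the 42 brighter members 37 were higher in KO (88.1%, against 48.6% of the 7770 table probe sets above the same level), and both KO pools lay above all WT pools in 23 (54.8%, against 21.9%). Of the 32 dimmer members 18 were higher (56.2%, against 53.5% of the 2591 table probe sets at or below this level). Their KO pools lay above all WT pools in 2 (6.25%, against 4.17%) and below in 3 (9.38%, against 4.36%). The table has no detection calls, so whether the dim members exceed the array background cannot be told from it.

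In the brighter members WT pool 1 lay closer to the KO pools than the other WT pools did. It was the highest of the WT pools in 32 of the 42 brighter members (76.2%, against 48.5% of the table above the same level). Among the 32 dimmer members it was the highest in 6 (18.75%, against 16.4% of the table at or below this level). With WT pool 1 as the only reference, 53 of the 74 members were higher in KO, with a median of 0.13 against 0.01 over the table, and both KO pools exceeded WT pool 1 in 42 members (56.8%, against 36.7% of the table). The sign differed from that against all WT pools in 14 members: 8 turned lower (Adam17, Adam19, Adamts3, Adamts6, Ctsh, Htra1, Serpinb6b and Serpinb9) and 6 turned higher (Serpina1d, Serpina3a, Serpina5, Serpinb5, Serpinb12 and Timp4). The median of the 42 brighter members went from 0.24 to 0.11 against WT pool 1, while that of the 32 dimmer ones went from 0.05 to 0.17. The like medians over all 74 members thus hide opposite shifts. In the table the median went from -0.02 to -0.03 above this level and from 0.01 to 0.11 at or below it. Most of the rise of the dimmer members was thus shared by the dim part of the table. In 17 of the 25 members whose KO pools lay above all WT pools, the log2 fold change against WT pool 1 was over 1.5 times smaller. No member was called by limma against WT pool 1 alone (1 at unadjusted p below 0.05), with WT pool 1 as a lone sample assumed to vary like the KO pools.

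**Figure D2:**
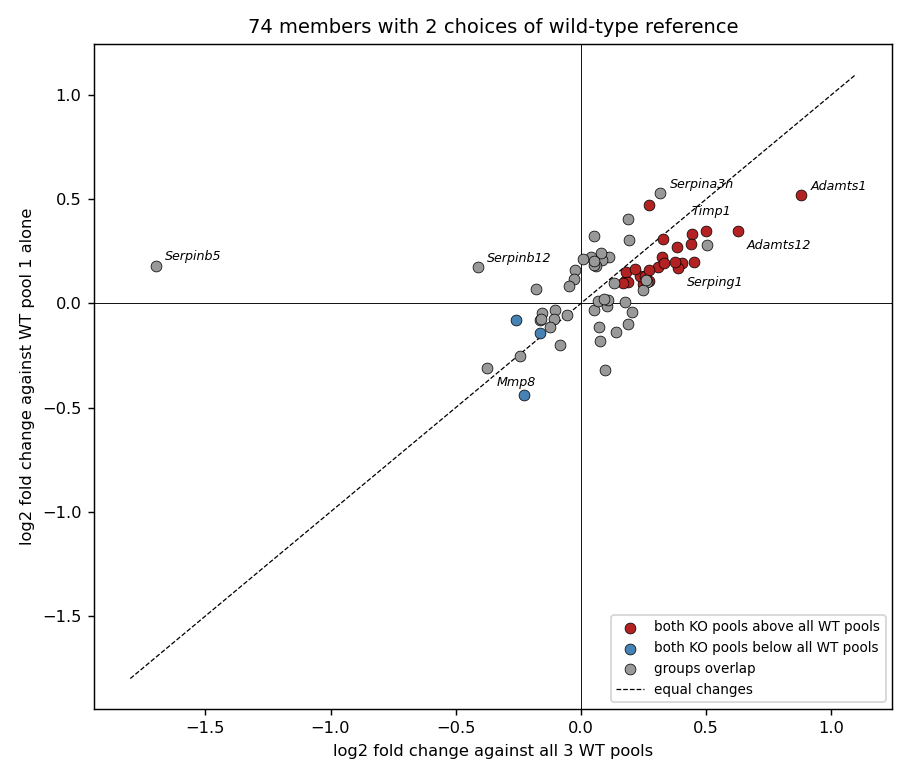
The log2 fold change of each of the 74 members against all 3 WT pools (horizontal) is set beside that against WT pool 1 alone (vertical); the dashed line marks equal changes. Of the 25 members with both KO pools above all WT pools, which lie above 0 on both axes by definition, 24 fall under the line, with Adamts1 at 0.88 and 0.52, while Serpinb5 moves from -1.70 to 0.18.

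The ADAMTS family held the call and the largest number of separated members. ADAMTSs are secreted zinc proteases with thrombospondin repeats, and ADAMTS-like proteins share the repeats but have no protease domain. Of 14 measured genes 12 were higher in KO and 2 lower, the family median was 0.21, and in 8 genes (57.1%) both KO pools lay above all WT pools, as in 17.5% of the table and 21.9% of the table above its 25th percentile. Adamts1 read 10.40, 9.70 and 10.01 in WT pools 1, 9 and 11, against 10.72 and 11.11 for KO pools 2 and 4. The groups did not overlap, and WT pool 1 was nearest to the KO pools. Its call was narrow. Without WT pool 1, 9 or 11 the adjusted p was 0.102, 0.831 and 0.0606. With any 1 pool left out, WT or KO, the log2 fold change ran from 0.69 to 1.08. Against WT pool 1 alone the log2 fold change was 0.52. With median centring, quantile normalisation or no moderation of the variance the adjusted p was 0.376, 0.360 and 0.560. Those settings called 1, 1 and 0 probe sets of the whole table, and the fit without WT pool 9 called 1. Ebf2 itself had an adjusted p of 0.560 without moderation and of 0.0657 without WT pool 1. The loss of the call in such fits is therefore not particular to Adamts1.

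None of the other 4 proteoglycan-cleaving members passed. Adamts9, a protease of versican, read 10.82, 10.43 and 10.46 in WT pools 1, 9 and 11, against 11.08 and 10.97 for KO pools 2 and 4 (log2 fold change 0.45, SE 0.18, adjusted p = 0.234). Adamts5, the main aggrecanase of mouse cartilage, read 11.74, 11.40 and 11.61 against 11.88 and 11.78 (0.25, SE 0.17), and Adamts8 had a log2 fold change of 0.18 (SE 0.17). In these 3 genes the KO pools lay above all WT pools, by a small margin for Adamts5. The margin was smaller still for Adamts8, where KO pool 2 read 8.084 and WT pool 11 read 8.073. Against WT pool 1 alone the log2 fold changes were 0.20 for Adamts9, 0.09 for Adamts5 and 0.15 for Adamts8. Adamts4, another aggrecanase, had WT values of 8.40, 8.39 and 8.39 and KO values of 8.39 (pool 2) and 7.91 (pool 4), so its log2 fold change of -0.24 (SE 0.18) came from KO pool 4 alone.

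Adamts12 came next in size to Adamts1. It encodes a protease that, like its relative ADAMTS7, cuts cartilage oligomeric matrix protein. Its values were 10.76, 10.38 and 10.30 in WT pools 1, 9 and 11, against 11.05 and 11.16 for KO pools 2 and 4, a 1.54-fold higher mean that did not pass (log2 fold change 0.63, SE 0.18, adjusted p = 0.105). With WT pool 1 as the only reference it was 0.35. The WT pools of Adamts12 spread more (SD 0.24) than the KO pools (SD 0.08). Adamts7 showed the same separation with a smaller difference (0.31, SE 0.17). Adamts17, known from fibrillin microfibrils, was at 10.94, 10.80 and 10.63 in WT and at 11.09 and 11.37 in KO (0.44, SE 0.17, adjusted p = 0.240). The protease-less Adamtsl5 was at 9.40, 9.41 and 9.06 in WT against 9.48 and 9.98 in KO (0.45, SE 0.19), or 0.19 without KO pool 4. The procollagen N-proteinase genes Adamts3 and Adamts14, whose products trim collagen precursors, had overlapping groups and log2 fold changes of 0.08 and -0.16. Adamts3 had no settled direction, with -0.18 against WT pool 1 alone, -0.04 without WT pool 11 and -0.05 without KO pool 2.

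Several marker lists also lay higher in KO. All 9 measured fibroblast genes (of 14 listed) were higher in KO. In 7 of them (77.8%, against 17.5% of the table) both KO pools lay above all WT pools. The mean of the list ran from 11.37 to 11.65 in WT and from 11.83 to 11.84 in KO. The 12 endothelial genes were all higher, with list means from 10.22 to 10.61 in WT and from 10.62 to 10.82 in KO. Of 9 measured mural cell genes, those of pericytes and smooth muscle, 8 were higher, with means from 9.94 to 10.72 in WT and from 10.73 to 10.84 in KO. The cell cycle list was higher in 10 of 11 genes, with means from 10.01 to 10.61 in WT and from 10.62 to 10.65 in KO. Both KO pools lay above all WT pools in 6 endothelial genes (50%), 2 mural genes (22.2%) and 4 cell cycle genes (36.4%). List means can thus separate where many of the single genes overlap. Against WT pool 1 alone the list medians went from 0.28 to 0.16 for fibroblast and from 0.42 to 0.14 for endothelial genes. They went from 0.69 to 0.02 for mural and from 0.45 to 0.06 for cell cycle genes. That of the ADAMTS family went from 0.21 to 0.16, but this median mixes unlike shifts. The median went from 0.25 to 0.15 for the proteoglycan-cleaving genes and from 0.47 to 0.26 for Adamts7 and Adamts12. It went from 0.26 to 0.17 for the ADAMTS-like genes and from -0.04 to -0.13 for the procollagen N-proteinase genes. For Adamts6, Adamts13 and Adamts17 it rose from 0.11 to 0.22. Of 10 measured Schwann cell genes 9 were lower, and the mean of the 10 ran from 11.17 to 11.40 in WT and from 10.62 to 10.90 in KO. The list was uneven. Egr2 (-1.13), Mag (-0.99), Ncmap (-0.86) and Fa2h (-0.79) were called, as were 0.328% of the table in this direction. Sox10 (-0.20) and Foxd3 (0.02) had overlapping groups. The part of these shifts in the protease values was not tested. In whole nerves a larger number of cells of a type and more RNA per cell cannot be told apart.

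**Figure D3:**
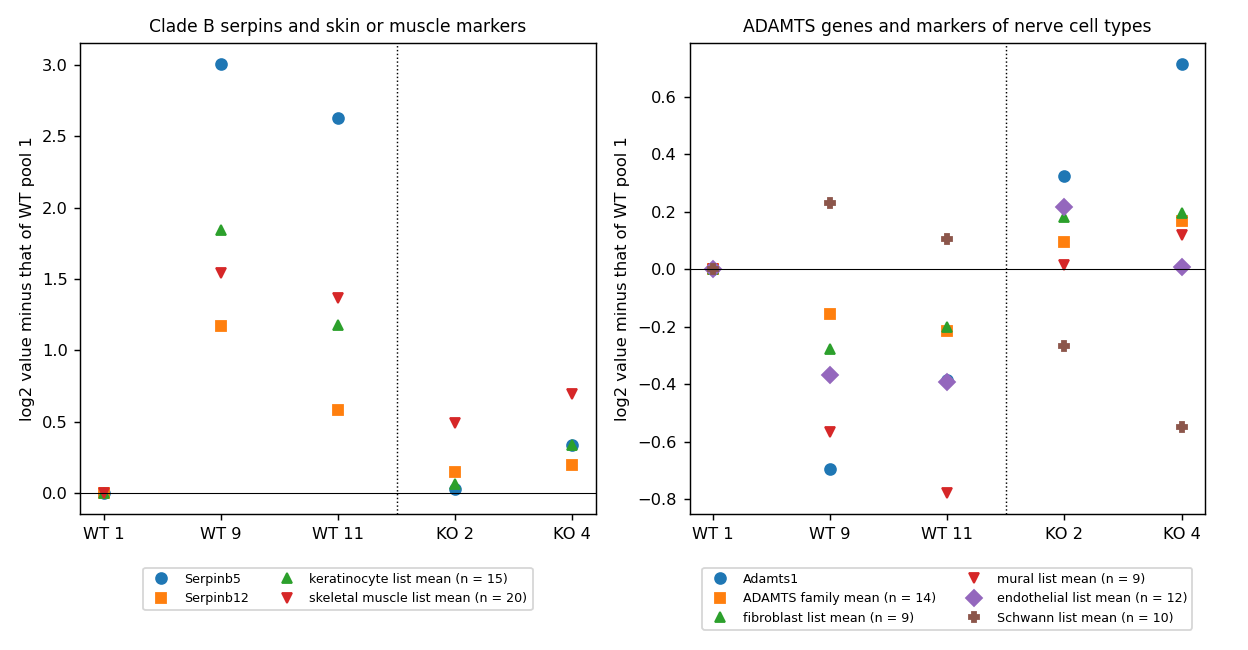
Points show the log2 value in each pool minus that of WT pool 1: on the left for Serpinb5, Serpinb12 and the means of 15 keratinocyte and 20 skeletal muscle genes, on the right for Adamts1 and the means of 14 ADAMTS, 9 fibroblast, 9 mural, 12 endothelial and 10 Schwann cell genes. On the left WT pools 9 and 11 stand above the other 3 pools. On the right Adamts1, ADAMTS, fibroblast, mural and endothelial points fall below 0 in WT pools 9 and 11 and above it in both KO pools. The mural points in KO pool 2 and the endothelial points in KO pool 4 lie barely above 0. The Schwann points do the opposite.

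Promoter sequences were read for members that stood out and for Mmp14, the membrane enzyme. RefSeq promoters (build GRCm38.p6) matched 53 of the 74 genes with 59 windows of 250 bases before a gene start, and 4 motifs were searched on both strands in these and in all 32851 windows: the core of the EBF family motif (CCCNNGGG), the AP-1 site (TGACTCA), the GC box (GGGCGG) and the TATA box (TATAAA). The EBF core was in 11.8% of all windows and in 6 windows of the members (10.2%), those of Adam19, Adamts9, Adamts13, Mmp14, Plaur and Serpinh1. The AP-1 letters were in 7 member windows (11.9%, against 4.46% of all), the GC box in 21 (35.6%, against 32.7%) and the TATA letters in 10 (16.9%, against 12.4%). A match is a description of letters and not of a bound site, and its absence says only that the letters are not in the window. Shown are Adamts1, the called member, Timp1 and Plaur, the inhibitor and receptor genes whose KO pools lay above all WT pools with a log2 fold change of at least 0.4, and Mmp14. They lie at chr16:85803114-85803363 (minus strand), chrX:20869916-20870165, chr7:24462233-24462482 and chr14:54431348-54431597 (plus strand), and are written 5′ to 3′ up to the base before the start, with matches to any of the 4 motifs in capitals.
Adamts1: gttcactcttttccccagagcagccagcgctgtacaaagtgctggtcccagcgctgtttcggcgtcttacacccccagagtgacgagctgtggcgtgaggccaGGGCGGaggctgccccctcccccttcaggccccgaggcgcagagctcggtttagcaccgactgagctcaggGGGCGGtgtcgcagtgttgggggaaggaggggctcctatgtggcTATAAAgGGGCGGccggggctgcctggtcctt
Timp1: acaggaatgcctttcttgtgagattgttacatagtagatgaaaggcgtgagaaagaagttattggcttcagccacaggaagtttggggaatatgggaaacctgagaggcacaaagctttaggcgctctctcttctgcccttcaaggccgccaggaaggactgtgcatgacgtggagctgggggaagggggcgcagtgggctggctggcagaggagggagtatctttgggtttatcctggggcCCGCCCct
Plaur: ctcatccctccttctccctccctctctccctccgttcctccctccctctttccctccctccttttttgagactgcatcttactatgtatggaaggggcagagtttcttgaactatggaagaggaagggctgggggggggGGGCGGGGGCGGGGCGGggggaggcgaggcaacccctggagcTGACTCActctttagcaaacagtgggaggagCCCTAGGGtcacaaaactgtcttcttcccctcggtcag
Mmp14: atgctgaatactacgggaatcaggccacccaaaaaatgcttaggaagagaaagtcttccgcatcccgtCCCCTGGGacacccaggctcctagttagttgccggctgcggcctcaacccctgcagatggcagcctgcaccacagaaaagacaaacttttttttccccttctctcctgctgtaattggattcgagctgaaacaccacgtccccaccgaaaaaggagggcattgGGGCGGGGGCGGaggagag
The Adamts1 window has a TATA box that begins 32 bases before the start and 3 GC boxes, none of which overlaps it. Timp1 has 1 GC box, on the other strand, next to the start. In Plaur 3 GC boxes run into each other between 111 and 95 bases before the start, the AP-1 site begins 69 bases before it and the EBF core 38 bases before it. The EBF core of Mmp14 begins 182 bases before the start, ahead of 2 GC boxes.

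Of 11 matrix metalloproteinases 0 were called by limma (0 at unadjusted p below 0.05). Of these 9 were higher and 2 lower, with a family median of 0.11, and both KO pools lay above all WT pools in 4 (36.4%, against 17.5% of the table). These shares are close to those of all 74 members. Mmp14, the membrane-type enzyme that activates pro-MMP2 at the cell surface, read 12.38, 12.16 and 12.32 in the WT pools and 12.48 and 12.32 in KO (log2 fold change 0.11, SE 0.17, 95% interval -0.24 to 0.46). The groups of Mmp14 overlapped. Mmp17, a membrane protease held by a lipid anchor, was at 8.41, 8.06 and 8.35 in WT and at 8.42 and 8.79 in KO (0.33, SE 0.18), with KO pool 2 level with WT pool 1. Mmp23, chosen after its values were seen, was at 9.69, 9.76 and 9.58 in WT and at 10.08 and 9.93 in KO (0.33, SE 0.17), and both of its KO pools stood clear of the WT pools.

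In Mmp28 and Mmp8 the KO pools differed widely from each other, and more than the genotypes did. The value of KO pool 4 minus KO pool 2 was 0.38 for Mmp17, 0.24 for Mmp3 and -0.16 for Mmp14. These smaller gaps also exceeded in size the log2 fold changes of 0.33, 0.19 and 0.11. Mmp28, for epilysin, an enzyme known from developing nerve and skin, read 9.90 and 9.22 for KO pools 2 and 4, against 9.76, 9.45 and 9.71 in WT (log2 fold change -0.08, SE 0.20). Mmp8, the collagenase of neutrophils, read 7.70 and 6.75 in KO pools 2 and 4 against 7.54, 7.81 and 7.45 in WT (-0.37, SE 0.22). Without KO pool 4 the log2 fold changes turned to 0.26 for Mmp28 and 0.10 for Mmp8. The neutrophil list, which holds Mmp8 among its 7 measured genes, averaged 7.02 to 7.36 in WT and 7.25 to 7.35 in KO.

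Among the inhibitors of these enzymes Timp1 differed most. Timp1, a secreted inhibitor that is induced in injured nerve, read 9.63, 9.27 and 9.52 in WT pools 1, 9 and 11, against 9.87 and 10.08 for KO pools 2 and 4. The groups did not overlap, and the mean was 1.42-fold higher in KO without passing (log2 fold change 0.50, SE 0.17, adjusted p = 0.180). With WT pool 1 as the only reference it was 0.35. Timp3, which binds to the matrix and also inhibits ADAM17, read 12.54, 12.35 and 12.53 in WT and 12.61 and 12.52 in KO (0.09, SE 0.17). Timp4 read 8.42, 8.67 and 8.93 in WT and 8.78 and 8.20 in KO (-0.18, SE 0.20), and both its WT values (SD 0.25) and its KO pair (SD 0.41) were widely spread. The difference between Timp1 and its relatives was not tested.

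**Figure D4:**
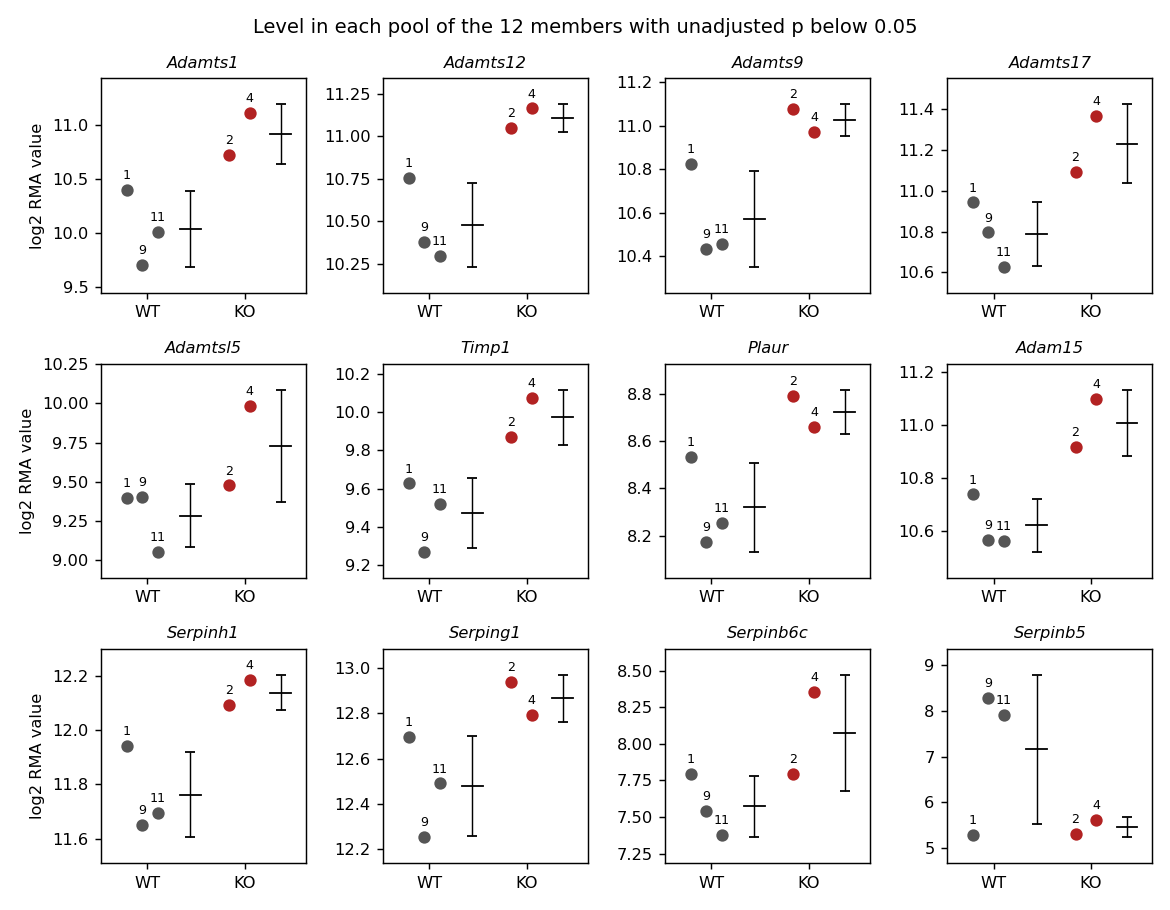
Log2 values in each pool (numbers beside the points) of the 12 members with unadjusted p below 0.05, with the mean and SD of 3 WT and 2 KO pools drawn beside the points; the vertical axes differ between panels and do not start at 0. In 10 panels both KO pools lie above all WT pools; in Serpinb6c KO pool 2 equals WT pool 1, and in Serpinb5 WT pool 1 lies with the KO pools.

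Of 9 ADAM genes 7 were higher in KO and 2 lower, with a median of 0.10. ADAMs are membrane proteases that release the outer part of growth factors and receptors, and several are known mainly from sperm. The 5 genes of somatic tissues were all higher in KO, with a median of 0.18, while the 4 known mainly from testis (Adam2, Adam4, Adam5 and Adam21) were 2 higher and 2 lower with a median of 0.00 to 2 decimals (-0.0019). The difference between these groups was not tested, Adam5 at 0.25 lay above 3 of the 5 somatic genes, and against WT pool 1 alone 3 of the 5 somatic genes were higher. Adam15 read 10.74, 10.57 and 10.56 in WT and 10.92 and 11.10 in KO, with no overlap (log2 fold change 0.38, SE 0.17, adjusted p = 0.299). Adam9 was separated by a smaller margin (0.18, SE 0.17). Adam17, the enzyme that releases tumour necrosis factor and cuts the axonal growth factor neuregulin, read 11.64, 11.59 and 11.44 in WT and 11.59 and 11.63 in KO. Its log2 fold change was 0.05 (SE 0.17, 95% interval -0.29 to 0.40), and it was -0.03 with quantile normalisation and against WT pool 1 alone, so Adam17 had no settled direction.

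The plasminogen system was measured in 3 genes, all higher in KO with a median of 0.26 and 0 called. Plat, for tissue plasminogen activator, which is made by Schwann cells and other cells of nerve, read 11.10, 10.98 and 10.87 in WT and 11.19 and 11.28 in KO (log2 fold change 0.26, SE 0.17). Plaur, the receptor that holds urokinase at the cell surface, read 8.53, 8.17 and 8.25 in WT and 8.79 and 8.66 in KO (0.40, SE 0.17, adjusted p = 0.288). Both genes had KO pools above all WT pools, and both differences were smaller against WT pool 1 alone, at 0.13 and 0.19. Plau, for urokinase itself, overlapped, with 8.61, 8.47 and 8.24 in WT and 8.65 and 8.58 in KO (0.18, SE 0.17, or 0.01 against WT pool 1). Htra1, a secreted serine protease and the HtrA gene that was measured, read 9.67, 9.42 and 9.06 in WT and 9.56 and 9.59 in KO. The WT pools of Htra1 spanned both KO values, and the log2 fold change of 0.19 (SE 0.19) turned to -0.10 against WT pool 1 alone.

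Of the 26 serpins 15 were higher in KO and 11 lower, with a median of 0.05, and 0 were called by limma (3 higher and 1 lower at unadjusted p below 0.05). Both KO pools lay above all WT pools in 5 (19.2%), near the 17.5% of the table. Of these 5 genes 3 are outside clades A and B. The KO pools lay below all WT pools in 2 (7.69%, against 13.3% of the table). Serpinh1 encodes HSP47, a chaperone of collagen that inhibits no protease. It read 11.94, 11.65 and 11.69 in WT pools 1, 9 and 11, against 12.09 and 12.18 for KO pools 2 and 4 (log2 fold change 0.38, SE 0.17, adjusted p = 0.316). Serping1, for the inhibitor of complement C1, read 12.70, 12.25 and 12.49 in WT and 12.94 and 12.79 in KO (0.39, SE 0.18, adjusted p = 0.319). Serpinf1, for pigment epithelium-derived factor, which inhibits vessel growth, had the same separation (0.27, SE 0.17). Against WT pool 1 alone these 3 genes were at 0.20, 0.17 and 0.16. Serpina3n, chosen after its values were seen, differed between the KO pools, with 9.76 in pool 2 and 9.33 in pool 4 against 9.02, 9.34 and 9.33 in WT (0.32, SE 0.18).

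Clade B serpins mostly stay inside cells, and in some of them WT pools 9 and 11 stood above the other pools. Serpinb5, known as maspin and made by epithelia, read 8.29 and 7.91 in WT pools 9 and 11, but 5.28 in WT pool 1, next to 5.31 and 5.62 for KO pools 2 and 4. WT pool 1 lay with the KO pools, so the log2 fold change of -1.70 (SE 0.50, adjusted p = 0.110) came from WT pools 9 and 11 and was 0.18 against WT pool 1 alone. Serpinb5 was called without WT pool 1 (adjusted p = 0.0287), without WT pool 11 (9.6e-05) and when only probe sets with a single symbol were fitted (0.0457). Without WT pool 11 the WT values left, 5.28 and 8.29, spanned both KO values, so that small p-value does not mark separated groups. Its neighbour Serpinb12, also epithelial, read 5.60 and 5.01 in WT pools 9 and 11, but 4.43 in WT pool 1, next to 4.58 and 4.63 for KO (-0.41, SE 0.23, or 0.17 against WT pool 1). Serpinb3a of the same cluster had this order with smaller gaps: 3.585 and 3.755 in WT pools 9 and 11, against 3.399 in WT pool 1. Its KO values were 3.258 and 3.385 (-0.26, or -0.08 against WT pool 1). Serpinb7, Serpinb13 and Serpinb3c, also known from epithelia, did not share this order. Serpinb7 read 3.98, 4.28 and 4.29 in WT and 4.45 and 4.46 in KO (0.27, SE 0.17). Serpinb13 was at 0.19 and Serpinb3c at 0.05 (-0.02 without WT pool 1). All 15 measured keratinocyte genes were lower in KO than in WT on average. The list was at 7.35 in WT pool 1 and from 8.52 to 9.19 in WT pools 9 and 11. Of these genes 0 had both KO pools below all WT pools, against 13.3% of the table. The part of skin in the Serpinb5 values was not tested.

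Most other serpins of clades A and B had overlapping groups. Of the 14 measured in clade B 10 were higher and 4 lower, with a median of 0.08. Serpinb6c, chosen after its values were seen, had the largest difference upward (0.50, SE 0.19, adjusted p = 0.225), but KO pool 2 and WT pool 1 both read 7.79, and without KO pool 4 it was at 0.22. Of 7 in clade A 6 were lower and 1 higher, with a median of -0.05. Serpina1c and Serpinb3a, at log2 levels under 5, were the serpins with both KO pools below all WT pools, by -0.16 and -0.26. The genes of clades A and B lie in clusters of close copies (Serpina1, Serpina3, Serpinb3, Serpinb6 and Serpinb9), whose probes can take up RNA of a neighbour, so values of single copies are uncertain.

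Cathepsins were higher in 6 of 7 genes, by at most 0.325, and 0 were called by limma (0 at unadjusted p below 0.05). Ctsl and Ctsz, for lysosomal cysteine proteases, had KO pools above all WT pools, with log2 fold changes of 0.22 (SE 0.17) and 0.23 (SE 0.17). Ctsk, the collagen-degrading cathepsin of osteoclasts and fibroblasts, read 10.58, 10.37 and 10.68 in WT and 10.72 and 10.64 in KO (0.13, SE 0.17), and its groups overlapped. Ctsg, for a serine protease in the granules of neutrophils and mast cells, was at 6.60, 6.41 and 6.49 in WT and at 6.75 and 6.90 in KO (0.325, SE 0.17). Beside these values, 6 measured macrophage genes averaged 9.53 to 9.62 in WT and 9.32 to 9.65 in KO, with 2 higher and 4 lower, and 7 mast cell genes averaged 9.43 to 9.54 in WT and 9.67 to 9.68 in KO, with 6 higher and 1 lower. Their part in the cathepsin values was not tested.

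Other genes of the protease network showed a shift in the same direction. They form a list of 89 convertases, peptidases, inhibitors, receptors and substrates outside the member families. The list was chosen with earlier results of these data known, and some of its genes, such as Fap, are also in the marker lists. Of these 51 were measured, 44 were higher in KO and 7 lower, and the median was 0.25. Both KO pools lay above all WT pools in 30 (58.8%, against 17.5% of the table and 21.9% of the table above its 25th percentile). They lay below in 2 (3.92%, against 13.3% of the table). The 1 called gene was Pi15, for a peptidase inhibitor of trypsin, which rose from 9.46, 8.62 and 8.55 in WT to 10.72 and 10.68 in KO (log2 fold change 1.82, SE 0.22, limma adjusted p = 0.000122). This call was lost with median centring (adjusted p = 0.098), quantile normalisation (0.125) and no moderation (0.560), and without WT pool 9 (0.636). Those settings called 1, 1, 0 and 1 probe sets of the whole table. It also did not hold in the fits that compare a single pool of 1 genotype. Ebf2 itself was called in 8 of 14 alternatives and Pi15 in 6, so the loss is not particular to Pi15. The log2 fold change of Pi15 ran from 1.24 to 2.12 over the 14 alternatives. The next largest differences did not pass: Prss35, a serine protease-like gene, was at 0.87 (SE 0.22, adjusted p = 0.067), Fap, for a fibroblast-bound peptidase, at 0.73 (SE 0.20) and Anpep, for aminopeptidase N, at 0.72 (SE 0.20). Mme, for neprilysin, lay lower, with 10.27, 10.77 and 10.48 in WT and 10 and 9.46 in KO (-0.78, SE 0.20, adjusted p = 0.067). Against WT pool 1 alone these genes were at 1.24 for Pi15, 0.30 for Prss35, 0.29 for Fap, 0.25 for Anpep and -0.54 for Mme, and the median of the list was 0.16.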

How the data were processed

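Total RNA of 5 pools of sciatic nerves was turned into fragmented, end-labelled cDNA and hybridised to Affymetrix arrays, 1 per pool, per the labels' protocols. The deposited values are on a log2 scale; the submitters' processing notes name RMA, whose version and settings are not given there or in the labels. Gene names came from the platform annotation. The 74 members have 1 symbol each, all matched to RefSeq. A further 5 probe sets with several symbols, at least 1 of them from these families, were left out. The genotypes were compared on all 10361 probe sets with limma 3.58.1 in R 4.3.3 (lmFit and eBayes, no covariates, 3 residual and 17.4 prior degrees of freedom), with two-sided p-values adjusted by Benjamini-Hochberg. The script was tested on simulated data. Nothing says that the pools came from separate litters, so a p-value covers the spread among these 5 pools alone, possibly technical, and their number limits the precision. Members and lists were chosen with earlier results of these data known. Named were called members, members at unadjusted p below 0.05 with separated groups and a change of at least 0.4, the member of each family with the highest mean or the largest change, and a fixed list of well known members; others were named after their values were seen. Alternatives were 2 scalings, 2 other variance models, filters on the mean at the 25th and 50th percentiles, single-symbol probe sets only, leaving out each pool, and WT pool 1 as the only reference with or without the other WT pools in the fit.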

Additional observations from a re-analysis of the deposited data

How the results depend on the processing

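No paired analysis was possible because the pool numbers of the genotypes (1, 9 and 11 against 2 and 4) share no number. The count of called members, 1 as reported, was 0 with median centring, quantile normalisation, no moderation (7 at unadjusted p below 0.05), WT pool 1 alone and WT pools 9 and 11 set apart. It was 2 above the 50th percentile, where Adamts12 joined (adjusted p = 0.0296), and 2 with single-symbol probe sets only, where Serpinb5 joined. Without WT pool 1, 9 or 11 it was 1, 0 and 1, and the called member was then Serpinb5, lower in KO, and not Adamts1. Of all probe sets 70 were called, against 1 with median centring, 1 with quantile normalisation, 158 with an intensity trend, 0 without moderation (498 at unadjusted p below 0.05), 287 above the 50th percentile, 164 with single symbols only, 0 with WT pool 1 alone (127 at unadjusted p below 0.05) and 0 with WT pools 9 and 11 set apart (286), and 0 to 105 with 1 pool left out. Beside Adamts3 and the members listed for WT pool 1, sign changes were seen in these members, none of which had passed: Adam17 (-0.0252 with quantile normalisation, -0.0325 with WT pool 1 alone or WT pools 9 and 11 set apart, -0.007 to 0.0965 with 1 pool left out), Htra1 (-0.098 with WT pool 1 alone or set apart), Serpinb5 (0.181), Serpinb12 (0.173) and Timp4 (0.070) likewise, and, with 1 pool left out, Mmp28 (-0.422 to 0.258), Mmp8 (-0.848 to 0.102) and Timp4 (-0.472 to 0.112), each lowest without KO pool 2 and highest without KO pool 4. Other members, also not called, changed sign with 1 pool left out. Without WT pool 1, Mmp19 (-0.082), Mmp25 (-0.049), Serpinb10 (-0.095), Serpinb3c (-0.022) and Serpind1 (-0.0095) turned lower. Without KO pool 2, Serpina11 (0.153) and Serpina4-ps1 (0.087) turned higher. Adamts1 kept its sign throughout (0.52 to 1.08). The causes were not tested. Signal over background is not given in the table, which limits what can be said of the 32 members at or below the 25th percentile.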

Other observations

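Several members lie next to each other in the genome, and the 9 pairs measured here held like and unlike differences. Adamts1 and Adamts5, adjacent on chromosome 16, were at 0.88 and 0.25 on the log2 scale. Serpinb6c and Serpinb6a, adjacent on chromosome 13, were at 0.50 and 0.17, and Mmp8 and Mmp27, adjacent on chromosome 9, at -0.37 and 0.08. In the chromosome 1 cluster Serpinb5, Serpinb12, Serpinb13 and Serpinb3a follow each other with -1.70, -0.41, 0.19 and -0.26. Smaller differences lay side by side for Serpina5 and Serpina3a on chromosome 12 (-0.03 and -0.05), Serpinb6b and Serpinb9 on chromosome 13 (0.21 and 0.10) and Serpinb10 and Serpinb8 on chromosome 1 (0.01 and 0.26). Differences between neighbours were not tested. In 22 of the 74 members (29.7%) an identical value occurred on 2 or more arrays, against 27.0% of the table.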
